A study of Mus musculus with 28 samples.

Results

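The genes described here are those of the mitochondrial respiratory chain and ATP synthase, encoded in the nucleus or in mitochondrial DNA. Members were taken by symbol: names that start with Nduf, Uqcr, Cox4 to Cox8, Atp5, mt-Nd, mt-Co, mt-Atp or mt-Cytb, and Sdha, Sdhb, Sdhc, Sdhd, Cyc1 and Cycs, without pseudogene names ending in -ps and without Atp5o. The rule found 111 of 54436 gene entries, 98 nuclear and 13 mitochondrial (mt-). By role, the nuclear members were 39 entries of complex I, 8 of complex I assembly, 4 of complex II, 10 of complex III with cytochrome c, 21 of complex IV and 16 of complex V, and 4 further symbols were listed without numbers. GENCODE lists 4 of these entries, Ndufa11b, Ndufb4c, Ndufs6b and Cox6c2, as processed pseudogenes, which the naming rule did not drop.

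The study measured gene counts in 28 libraries of mouse primary microglia, the resident macrophages of the brain, with a kit that reads the 3′ ends of polyadenylated RNA. The cells were APOE3 (genotype label WT) or APOE3S/S (genotype label Christchurch, the R136S variant of the series title). APOE3 cells were untreated (label Control, 6 libraries), given tau (6) or given amyloid (3), and APOE3S/S cells were untreated (4), given tau (6) or given amyloid (3). Controls received nothing. Neither age, dose nor duration is stated, nor whether replicates came from separate animals or cultures, so p-values measure the spread between these libraries, which may be technical. Libraries are numbered within a group in order of accession. Their titles follow 2 naming styles, one that contains SAN (17 libraries, all treatments) and a second (11 libraries, untreated and tau only), called title series here because the labels do not say what they stand for.

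Complexes I, III and IV of the inner mitochondrial membrane pass electrons to oxygen and pump protons, complex II feeds electrons in from succinate, and complex V makes ATP from the proton gradient. Complex II is entirely nuclear-encoded, whereas the other complexes combine nuclear subunits, imported as proteins, with subunits encoded in mtDNA. Macrophages and microglia are known to shift between oxidative phosphorylation and glycolysis when they are activated by inflammatory stimuli.

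Library totals ran from 14.47 to 27.23 M counts (M, 1000000) with 17307 to 20028 genes detected. All 10 microglial markers were present (summed 4108 to 5098 CPM, that is counts per 1000000 counts of the library), against 23.4 to 77.9 CPM for 7 astrocyte markers, 183 to 285 for 8 oligodendrocyte markers, 0.57 to 4.44 for 7 neuronal markers and 0.658 to 64.6 for 6 fibroblast markers. The granulocyte markers S100a9 and Mpo and the lymphocyte marker Nkg7 were at 0 in every library, while S100a8 was at 2.30 to 21.5 CPM and Elane, Cd3e and Ncr1 reached at most 0.313 CPM. Summed astrocyte markers were 32.8 to 61.7 CPM in tau-treated and 23.4 to 38.3 CPM in untreated APOE3 libraries. Over all libraries Aldh1l1 alone was at 20.0 to 64.1 CPM, and no other astrocyte marker passed 8.4 CPM. The sum therefore need not follow these markers as a set, and their part in the results below was not tested. In bulk RNA, fewer cells of a type and less RNA per cell cannot be told apart.

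Of the members tested, few changed between groups. Tau against amyloid in APOE3 cells gave 4 higher members of 101 (3.96%, against 7.44% of all genes), a count that was 1 or 2 without any 1 library, and Cycs, the electron carrier cytochrome c, had the largest fold of the 4. The most visible variation lay between libraries of the same group, in which nuclear members moved together. The upstream sequences of Cycs and Ndufa11, a structural subunit of complex I, are shown, a choice made after their values were seen, because both were higher with tau than with amyloid and both hold the palindrome CGCATGCG, the core of the sequence bound by NRF1, a transcription factor known for its respiratory chain targets. Each is the 250 bases before the RefSeq start (GRCm38.p6), 5′ to 3′ on the gene's strand, with the palindrome in capitals. Cycs lies at chr6:50566570-50566819 on the minus strand and Ndufa11 at chr17:56717512-56717761 on the plus strand.
Cycs: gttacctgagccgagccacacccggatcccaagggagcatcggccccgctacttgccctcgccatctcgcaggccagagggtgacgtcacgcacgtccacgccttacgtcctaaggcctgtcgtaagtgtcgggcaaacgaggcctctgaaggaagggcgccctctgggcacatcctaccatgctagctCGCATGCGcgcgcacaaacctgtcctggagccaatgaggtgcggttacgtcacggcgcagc
Ndufa11: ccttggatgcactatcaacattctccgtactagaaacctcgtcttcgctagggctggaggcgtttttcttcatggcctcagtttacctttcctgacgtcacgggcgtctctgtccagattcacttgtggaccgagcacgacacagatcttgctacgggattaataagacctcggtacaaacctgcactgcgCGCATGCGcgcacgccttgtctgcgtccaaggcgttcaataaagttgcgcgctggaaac
The match starts 61 bases before the start of Cycs and 59 bases before that of Ndufa11. The palindrome, which reads the same on both strands, was present in these 250 bases in 9 of 74 nuclear members with an entry (12.2%), against 472 of 27025 genes in the whole table (1.75%). By entry, where a gene can have several, it was in 9 of 79 (11.4%) against 509 of 32851 (1.55%). The other members with a match were Atp5g2, Atp5j, Atp5k, Atp5l, Cox6a1, Ndufa8 and Ndufaf4. Atp5b, encoding the catalytic beta subunit of complex V, had no match, and 24 nuclear members, Cyc1 among them, had no entry. In tau against amyloid in APOE3, the median log2 fold change was 0.27 over the 9 members with the palindrome and 0.20 over 62 tested members without it. With tau against untreated cells it was 0.03 against 0.06 in APOE3 and -0.13 against -0.11 in APOE3S/S, so the order of the medians turned between comparisons. A match is a description of the letters and does not show binding.

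Nuclear members summed to 5872 to 8895 CPM per library (median 7043) and mt- members to 8627 to 17030 CPM (median 13626), so that all members took 1.72 to 2.40% of counts. Each count stands for a 3′ end, so no length scale was applied, and the shares below are shares of counts. By role, nuclear complex I subunits summed to 1242 to 2028 CPM, complex II to 555 to 768, complex III with cytochrome c to 645 to 1003, complex IV to 1198 to 2039 and complex V to 2113 to 3038. Of the 98 nuclear members, 11 averaged under 1 CPM. They include the 4 processed pseudogenes and isoforms known from other tissues, such as Cox4i2 (0 to 0.287 CPM), Cox8b (0 to 0.224) and Ndufa4l2 (0 to 0.155). Cox8c and Cox7b2 had no count.

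The mt- members were uneven in count although they are transcribed as long polycistronic RNAs. mt-Co1, the catalytic core of complex IV (chrM:5328-6872), supplied 54.6 to 63.3% of mt- counts in each library. mt-Nd5 (mean 10.6%), mt-Cytb (mean 8.54%) and mt-Nd1 (mean 8.45%) came next. In all, 7 mt- members averaged at least 100 CPM and 6 averaged under 50 CPM, namely mt-Co2, mt-Co3, mt-Atp6, mt-Nd3, mt-Nd4l and mt-Atp8. These 6 are neighbours among the mt- members, from chrM:7013 to chrM:10173, between mt-Co1 and mt-Nd4. Whether their low counts reflect low RNA levels was not tested. mt-Atp8 (chrM:7766-7969) ranged from 0 to 0.453 CPM and was not tested. It overlaps mt-Atp6 by 43 bases, and mt-Nd5 and mt-Nd6 overlap by 14 bases on opposite strands. How the counting divided reads between overlapping genes, or between mtDNA and its nuclear copies, is not stated.

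**Figure D1:**
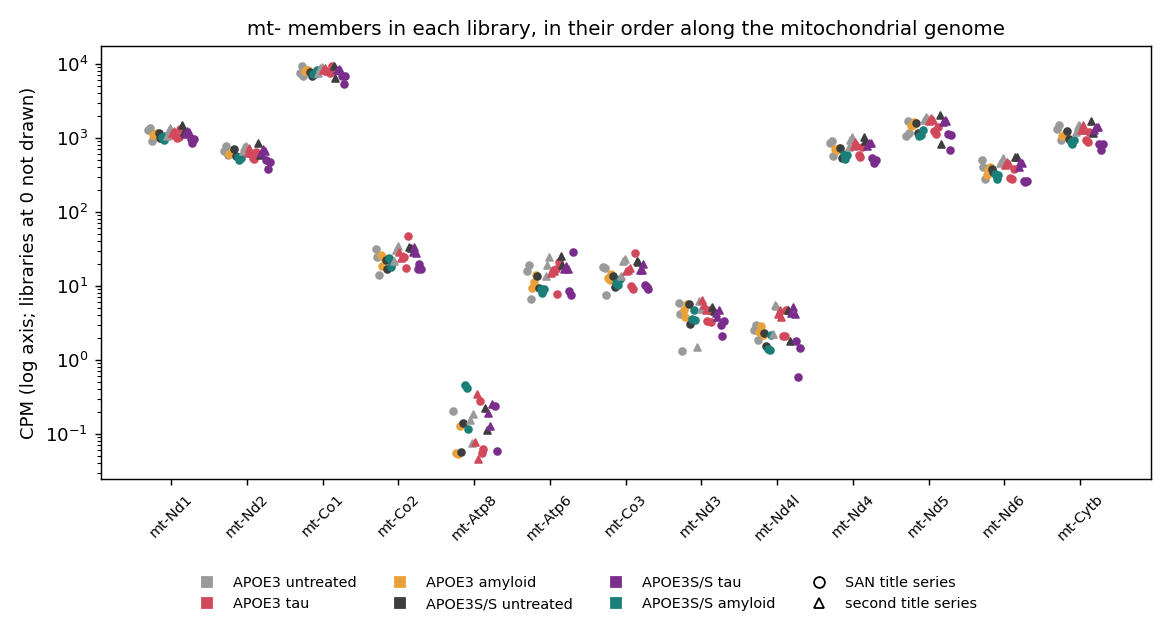
CPM (log axis) of each mt- member in the 28 libraries, in order along the mitochondrial genome, with colour for group and shape for title series; libraries at 0 are not drawn. mt-Co1 lies between 5286 and 9495 CPM, while 6 members average under 50 CPM.

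Nuclear members varied together from library to library. For the 80 nuclear members that averaged 10 CPM or more, the median correlation of a member with the mean of the others, within group and title series over 28 libraries, was 0.87, and 55 of 80 exceeded 0.8. Cox6b1 (0.97), a complex IV subunit, and Atp5e (0.97), the epsilon subunit of complex V, were among the highest. Ndufs1, the largest complex I subunit (-0.00), Ndufaf4, a complex I assembly factor (0.02), and Ndufa12, an accessory subunit of complex I (0.04), did not follow the others, and these genes were picked after their values were seen. Among mt- members the same correlation ran from -0.63 (mt-Nd5) to 0.56 (mt-Co2). These points share library depth and composition, and the values are descriptions. The same correlation was not taken for other genes or with any library left out, so it is not shown to be particular to the chain.

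The shared movement of nuclear members followed a pattern of the whole library. In each library, the median log2 deviation of the 1635 shortest other genes minus that of the 1635 longest (by GENCODE transcript length) was taken as a short-minus-long measure. It was highest in APOE3S/S untreated library 4 (0.63), APOE3 untreated library 1 (0.38) and APOE3S/S tau library 5 (0.36), and lowest in APOE3 untreated libraries 3 (-0.23) and 4 (-0.21). Summed nuclear CPM correlated with it at r = 0.94 over 17 SAN libraries (rho = 0.92, and r = 0.89 without the 2 libraries farthest from the median) and at r = 0.99 over the 11 of the second series (rho = 0.98, and r = 0.96 without 2). For mt- members the values were r = -0.32 (rho = -0.19, and r = -0.14 without 2) and r = -0.47 (rho = 0.29). Without 2 libraries the latter was r = 0.65, so its sign rested on them. Nuclear members have short transcripts, with a median of 694 bases against 2241 over the other genes, and 77 of 80 lay below that median. Whether RNA quality, library preparation or the cells set the measure was not tested.

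**Figure D2:**
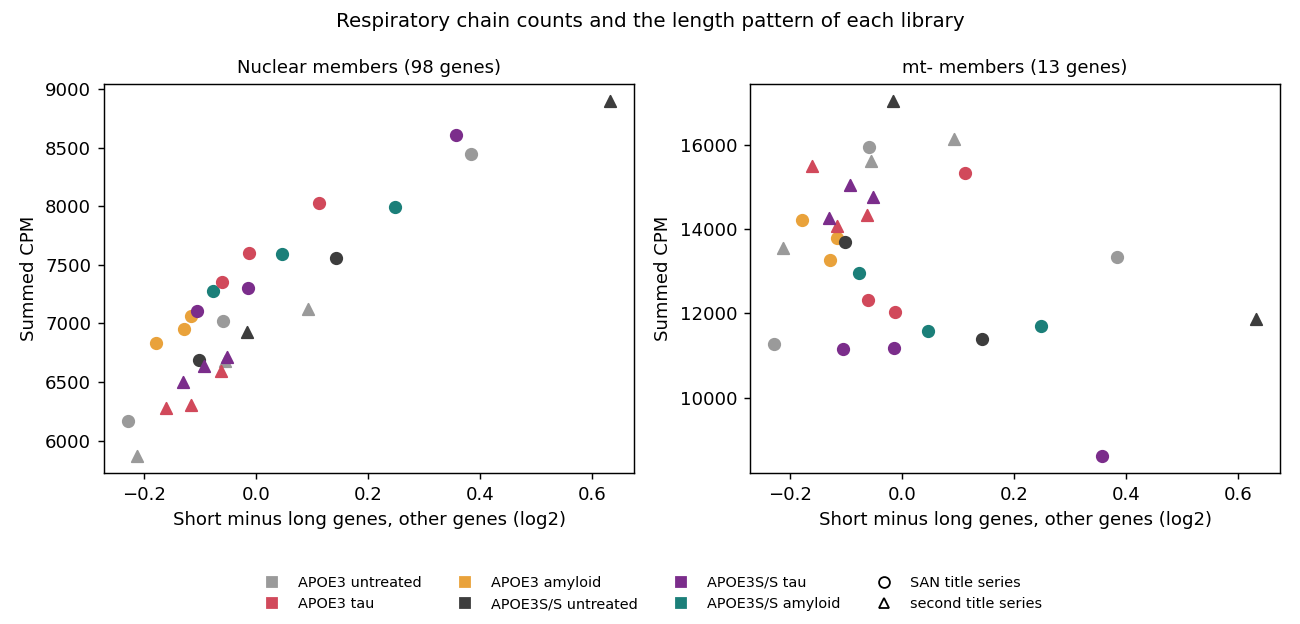
Summed CPM of nuclear (left) and mt- members (right) against the short-minus-long measure of each library (log2, computed without members), 1 point per library. Nuclear counts climb from 5872 to 8895 CPM along the measure, while mt- counts scatter between 8627 and 17030 CPM.

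The correlation of summed nuclear with summed mt- counts was r = -0.27 over the SAN libraries (rho = -0.25) and r = -0.39 over the second series (rho = 0.32), and without the 2 libraries farthest from the median mt- level r became 0.12 and 0.74. The sign rested on few libraries in each series. The ratio of mt- to nuclear counts was above 2 in 10 of 11 libraries of the second series and in 3 of 17 SAN libraries. APOE3S/S untreated library 4 was the exception in the second series (1.33), and APOE3S/S tau library 5 was the lowest of all (1.00). Treatment by amyloid occurs in the SAN series alone, so groups are also set side by side within each series.

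**Figure D3:**
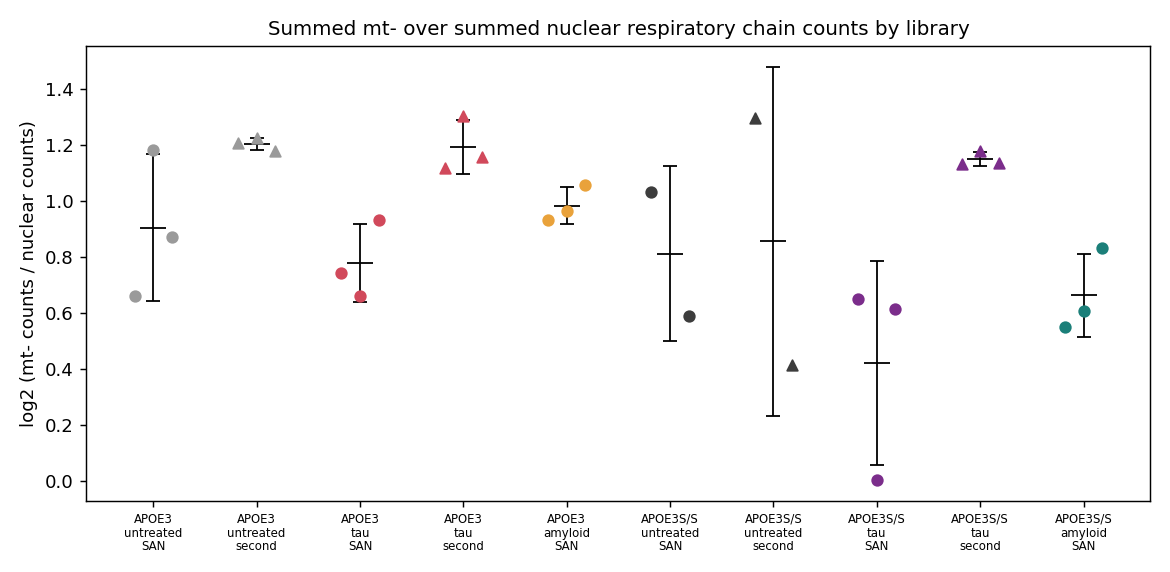
log2 of summed mt- over summed nuclear counts for each library, by group and title series, with mean and SD (bars). Libraries of the second series lie at 1.12 to 1.30 except APOE3S/S untreated library 4 at 0.42, and APOE3S/S tau library 5 in the SAN series lies at 0.00.

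In APOE3 cells the log2 ratio was 0.99 ± 0.25 with tau (SD, n = 6) and 1.06 ± 0.23 untreated (SD, n = 6), and the groups overlapped in both series. In APOE3S/S cells it was 0.79 ± 0.46 with tau (SD, n = 6) and 0.83 ± 0.40 untreated (SD, n = 4) over both series. In the SAN series it was 0.42 ± 0.36 with tau (SD, n = 3) and 0.81 ± 0.31 untreated (SD, n = 2), a difference of -0.39. In the second it was 1.15 ± 0.03 (SD, n = 3) and 0.86 ± 0.62 (SD, n = 2), a difference of 0.29. In the SAN series the difference was -0.17 without APOE3S/S untreated library 1, -0.61 without untreated library 2 and -0.18 without tau library 5. Leaving out untreated library 4 turned the second-series difference to -0.15, and leaving out untreated library 3 raised it to 0.73. With amyloid it was 0.66 ± 0.15 in APOE3S/S and 0.98 ± 0.07 in APOE3 (SD, n = 3 each), and these groups did not overlap. The same held for APOE3S/S against APOE3 with tau in the SAN series (difference -0.36) but not in the second (-0.04). In the SAN series the closest libraries were at 0.65 and 0.66, and the difference was -0.15 without APOE3S/S tau library 5. In the second series it was 0.01 without APOE3 tau library 2. No test was made of the ratio, since it is a score over the members. The log2 ratio also correlated with the short-minus-long measure described above. Over the SAN libraries it was r = -0.69 (rho = -0.67, and r = -0.57 without the 2 libraries farthest from the median). Over the second series it was r = -0.91 (rho = -0.26, and r = -0.04 without 2). The part of the measure in the ratio differences was not tested.

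Tau against untreated APOE3 cells asked whether tau alters the chain on the APOE3 background. Of 101 members tested (89 nuclear, 12 mt-), none was called higher and 1 was called lower by edgeR at an adjusted p under 0.05, while 14.9% of all 13912 genes were called (8.98% higher and 5.87% lower). The median log2 fold change was 0.04 over nuclear and -0.02 over mt- members, against -0.02 over all genes. The lower member was Ndufaf7, a methyltransferase that acts on a complex I subunit during assembly (chr17:78937136-78948052, GRCm38). Its CPM was 6.71, 6.76 and 7.12 with tau and 6.38, 8.95 and 10.2 untreated in the SAN series, and 3.27, 3.35 and 5.43 with tau against 5.65, 6.83 and 7.70 untreated in the second. The groups overlapped in the SAN series and separated in the second. Ndufaf7 fell by 0.48 ± 0.16 (SE) on the log2 scale (edgeR, adjusted p = 0.046), with -0.23 in the SAN and -0.75 in the second series, and 5 of 12 fits that each left out 1 library kept the call. It was lost without APOE3 untreated library 1 (adjusted p = 0.127), 3 (0.0668), 5 (0.0709) or 6 (0.0935) and without APOE3 tau library 1 (0.118), 3 (0.11) or 5 (0.0537). At an unadjusted p under 0.05 by edgeR, 2 members were higher and 1 lower, against 1995 higher and 1819 lower of 13912 genes. DESeq2 and limma-voom each called 1 higher member, Cycs, and Ndufaf7 lower. DESeq2 called 17.6% and limma-voom 15.4% of all genes.

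Other complex I and complex II members did not pass. Of 37 complex I entries tested, the pseudogene Ndufb4c among them, 30 had a fold change above 0 (median 0.04). Sdhb, the iron-sulfur subunit of complex II, had 0.32 ± 0.14 (edgeR, adjusted p = 0.14), and Sdha, its flavoprotein subunit, 0.01 ± 0.06 (adjusted p = 0.95). Sdha also varied least between libraries of a group, with an SD of 0.05 on the log2 scale against a median of 0.19 over nuclear members. The complex IV subunit Cox4i1 had -0.07 ± 0.13 and the Rieske protein of complex III, Uqcrfs1, 0.04 ± 0.10. Among mt- members, mt-Nd6 had -0.20 ± 0.12, mt-Co1 0.07 ± 0.11, mt-Cytb -0.14 ± 0.13 and mt-Nd1 -0.05 ± 0.11, none of them called.

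Cycs differed between the title series (chr6:50562563-50566538, minus strand). In the SAN series its CPM was 68.7, 68.5 and 80.3 with tau and 40.6, 37.3 and 35.9 untreated. In the second series it was 46.6, 41.8 and 44.1 with tau and 38.0, 44.3 and 48.8 untreated. All 3 tau libraries of the SAN series lay above its untreated ones, and the groups overlapped in the second. Over both series Cycs had 0.50 ± 0.18 (edgeR, adjusted p = 0.061), with 1.02 in the SAN series (adjusted p = 0.00062) and 0.03 in the second (adjusted p = 0.97). Its adjusted p over both series was 0.033 in DESeq2 and 0.048 in limma-voom.

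The difference between the series was itself tested in APOE3 cells, as a tau by series interaction over 12 libraries. Of 101 members, 2 were called, both higher in the SAN series, against 8.08% of all 13721 genes (4.6% higher and 3.48% lower). Cycs had an interaction of 0.97 ± 0.17 (edgeR, adjusted p = 0.0029) and kept its call in 12 of 12 fits without 1 library. Cyc1, the haem-bearing cytochrome c1 of complex III (chr15:76343523-76346260), had 0.52 ± 0.15 (adjusted p = 0.049) and kept it in 2 of 12, those without APOE3 untreated library 1 or APOE3 tau library 4. Without APOE3 untreated library 1, 8 members were called. Cyc1 was at 118, 135 and 137 CPM with tau and 103, 102 and 89.7 untreated in the SAN series. In the second series it was at 95.9, 86.4 and 94.7 with tau and 91.7, 94.9 and 103 untreated. The tau and untreated groups of Cyc1 separated in the SAN series and overlapped in the second.

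Within the SAN series alone, edgeR called 5 members with tau in APOE3, namely Cycs, Cyc1, Atp5b and Ndufa11 higher and the assembly factor Ndufaf1 lower, against 19% of genes. None was called in the second series alone, against 2.55%. With the short-minus-long measure as a covariate, an alternative added after the data were seen, 15 members were called higher and 1 lower, against 23% of genes. Those higher were Cycs, Cyc1, Uqcrc1 and Uqcrq of complex III with cytochrome c, Sdhb and Sdhd of complex II, Ndufb3, Ndufb6, Ndufc1 and Ndufs6 of complex I, Cox5a and Cox5b of complex IV, and Atp5b, Atp5e and Atp5g3 of complex V. Their fold changes with the covariate ranged from 0.15 (Atp5e) to 0.53 (Cycs), and no mt- member was among them. Without the 3 libraries highest in the measure, also an added alternative, 3 members were called higher and none lower, against 13.6% of genes.

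Tau against untreated APOE3S/S cells gave no called member among 101 by edgeR, DESeq2 or limma-voom, against 3.28% of all genes by edgeR (2.14% higher and 1.14% lower). DESeq2 called 6.84% and limma-voom 5.31% of all genes. At an unadjusted p under 0.05, 4 members were lower and none higher, against 1302 lower and 1414 higher of 13912 genes. The median log2 fold change was -0.11 over nuclear and -0.23 over mt- members, against -0.01 over all genes. The nuclear median was 0.15 in the SAN series and -0.35 in the second, where the 2 untreated libraries include library 4, the highest of all in the short-minus-long measure. Without the 3 libraries highest in that measure the nuclear median was -0.02, and with the measure as a covariate it turned to 0.06, with 67 of 89 members above 0. The smallest p-values were those of mt-Nd6, a complex I core subunit, at -0.39 ± 0.14 (edgeR, adjusted p = 0.11), and Ndufb11, a complex I accessory subunit, at -0.39 ± 0.15 (adjusted p = 0.14).

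In the SAN series alone, Cycs was the member called with tau in APOE3S/S (0.78, edgeR, adjusted p = 0.0196), against 4.64% of genes. It was at 57.6, 68.4 and 70.7 CPM with tau and 35.1 and 44.7 untreated there, and at 33.4, 39.5 and 42.5 against 37.6 and 50.5 in the second series. The groups separated in the SAN series and overlapped in the second. No member was called in the tau by genotype interaction by any of the 3 tools, and edgeR called 0% of genes. None was past an unadjusted p under 0.05 by edgeR, against 113 higher and 171 lower of 13912 genes. The tau contrasts of the genotypes share no libraries.

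**Figure D4:**
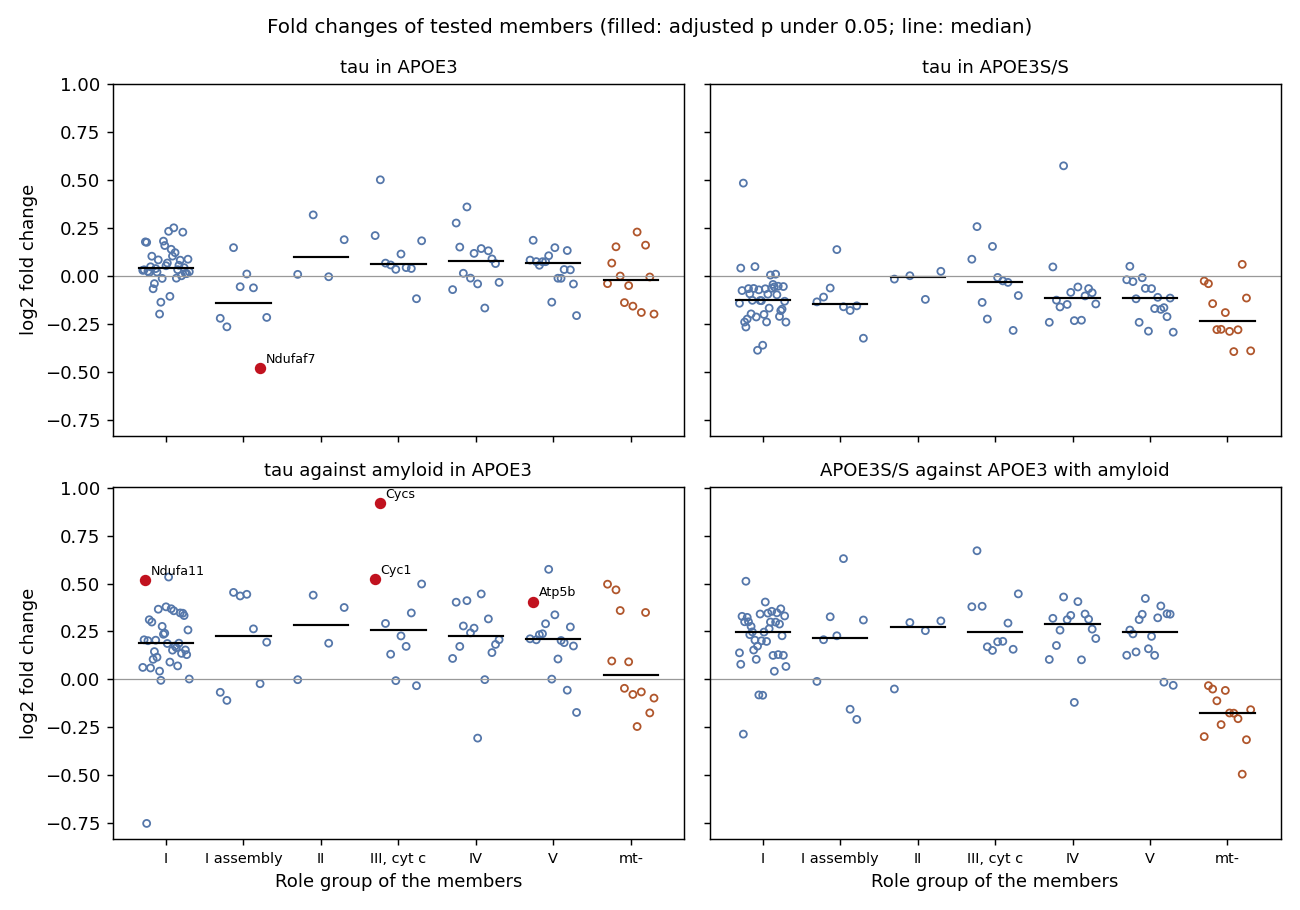
log2 fold changes of the 101 tested members by role in 4 comparisons, each point 1 gene, lines at the median and filled points called by edgeR at an adjusted p under 0.05. The called members are Ndufaf7 with tau in APOE3, and Cycs, Cyc1, Atp5b and Ndufa11 in tau against amyloid.

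APOE3S/S against APOE3 gave no called member, untreated or with tau, by edgeR, DESeq2 or limma-voom, against 0.00719% and 0.0144% of all genes by edgeR. The shares were 0.0359% and 0.0216% by DESeq2, and 0.0144% and 0.0216% by limma-voom. At an unadjusted p under 0.05, 6 members were higher and none lower untreated (632 and 445 of all genes). With tau none was past it (159 and 141 of all genes). In untreated cells 79 of 89 nuclear members had a fold change above 0 (median 0.19), against 6896 of 13912 genes (median -0.00). The nuclear median was 0.02 in the SAN series and 0.36 in the second, and it was 0.01 with the short-minus-long covariate. Ndufv3, an accessory subunit of the NADH-binding module of complex I, had the smallest p, with 0.36 ± 0.14 (edgeR, adjusted p = 0.64). With tau, the mt- median was -0.19, with -0.37 in the SAN series and -0.00 in the second.

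Amyloid against untreated cells, within the SAN series, gave no called member in APOE3 or in APOE3S/S by edgeR, DESeq2 or limma-voom. Of all genes, edgeR and limma-voom called 0% in each, and DESeq2 called 2.08% in APOE3 and 0.0144% in APOE3S/S. With the 2 groups alone, edgeR called 4.43% of genes in APOE3 and 0 members. At an unadjusted p under 0.05, 1 member was lower in APOE3 and 2 were higher in APOE3S/S (681 and 613 of all 13872 genes). Nuclear members had a median of -0.10 in APOE3, which turned to 0.08 with the short-minus-long covariate. In APOE3S/S the median was 0.14, which turned to -0.05 in a fit of all 28 libraries. Cycs was at 39.6 to 42 CPM with amyloid in APOE3, near the untreated libraries, with a fold change of 0.09 ± 0.14 (edgeR, adjusted p = 0.79). In APOE3S/S cells it was at 51.4, 60.5 and 71.7 CPM with amyloid and 35.1 and 44.7 untreated, groups that did not overlap. Its fold change there was 0.66 ± 0.16 and did not pass (edgeR, adjusted p = 0.58), though it passed without APOE3S/S untreated library 2 (adjusted p = 0.024). The amyloid by genotype interaction had no called member by any of the 3 tools, and edgeR called 0% of genes. At an unadjusted p under 0.05 by edgeR, 3 members were higher and none lower, against 257 higher and 257 lower of 13872 genes.

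Between genotypes under amyloid, edgeR and limma-voom called no member (0% of genes by each). DESeq2, which called 0.425% of genes, called 1 member, Cycs (0.68, DESeq2, adjusted p = 0.013). In edgeR Cycs had 0.67 ± 0.14 (adjusted p = 0.30), the smallest p of any member. At an unadjusted p under 0.05, 15 members were higher and none lower, against 932 higher and 743 lower of 13872 genes. All 12 mt- members tested had a fold change below 0 (median -0.18), while 79 of 89 nuclear members were above 0 (median 0.25), against a median of 0.00 over all genes. The short-minus-long measure was -0.08 to 0.25 in the APOE3S/S and -0.18 to -0.12 in the APOE3 amyloid libraries, groups that did not overlap. With it as a covariate the nuclear median was 0.04 and the mt- median -0.30. Marker sums also separated these groups. Microglial markers summed to 4364 to 4663 CPM in APOE3S/S and 4982 to 5098 CPM in APOE3, and fibroblast markers to 0.658 to 1.89 and 5.60 to 64.6 CPM. Their part in the result was not tested.

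Tau against amyloid in APOE3 cells, a direct contrast within the SAN series, had the most called members. Its tau libraries are those of the SAN contrast of tau with untreated cells above. Of 101, 4 were higher with tau and none lower, or 3.96%, against 7.44% of 14136 genes (4.31% higher and 3.13% lower). Nuclear members had a median of 0.21 and mt- members of 0.02, against -0.00 over all genes. Cycs (0.92 ± 0.14, edgeR, adjusted p = 0.0042) was the member that kept its call in all 6 fits without 1 library, and its tau libraries (68.5 to 80.3 CPM) all lay above the amyloid ones (39.6 to 42).

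Cyc1 was at 118, 135 and 137 CPM with tau and at 93.6, 101 and 94.8 with amyloid. It had 0.52 ± 0.12 (edgeR, adjusted p = 0.021) and kept its call only without APOE3 tau library 4 (adjusted p = 0.0254), of 6 such fits. Atp5b (chr10:128083273-128090391) was at 789, 837 and 822 CPM with tau and at 646, 674 and 650 with amyloid. It had 0.41 ± 0.11 (adjusted p = 0.035) and lost its call without any 1 of the 6 libraries (adjusted p 0.0565 to 0.139). Ndufa11 (chr17:56717767-56722141) was at 40.5, 43.4 and 39.6 CPM with tau and at 30.0, 33.0 and 28.9 with amyloid, with 0.52 ± 0.14 (adjusted p = 0.035), and likewise lost its call in each of the 6 fits (0.0603 to 0.133). The groups did not overlap in these 3 genes either. Like Cycs, they were named for calls on these same libraries, so the separation is no further support.

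The short-minus-long measure was -0.06 to 0.11 in the tau and -0.18 to -0.12 in the amyloid libraries of that contrast, without overlap. With it as a covariate the 4 genes stayed called, with Cycs at 0.86 and Ndufa11 at 0.39, Atp5g1 and Uqcrq joined them, and the nuclear median was 0.07. A fit of the 2 groups alone called 34 members higher and 1 lower, with 27.9% of all genes. In APOE3S/S the same contrast had no called member by edgeR, DESeq2 or limma-voom (0.149% of genes by edgeR, 0.0707% higher and 0.0778% lower). None was past an unadjusted p under 0.05 by edgeR, against 575 higher and 753 lower of 14136 genes. DESeq2 called 1.12% and limma-voom 0.134% of genes in that contrast. Cycs had 0.11 ± 0.14 there. Whether tau against amyloid differed between genotypes was not tested.

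Ndufa4 and its relative AA467197 (Nmes1) were set side by side, because AA467197 is known to take the place of Ndufa4 in complex IV in inflamed cells. AA467197 (chr2:122636986-122641191) is no member by symbol. With tau it was at 17.4, 19.6 and 19.9 CPM in APOE3 SAN libraries against 6.37, 5.22 and 6.19 untreated, and at 8.24, 6.58 and 7.33 against 3.47, 2.34 and 3.57 in the second series. Tau and untreated libraries of AA467197 separated in each series. It rose by 1.52 ± 0.21 in APOE3 (edgeR, adjusted p = 0.00014) and by 1.45 ± 0.24 in APOE3S/S (adjusted p = 0.0051), the latter by 2.12 in the SAN and 0.72 in the second series. APOE3S/S amyloid libraries were at 5.27, 9.63 and 28.9 CPM, so that library 3 stood far above the others.

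Ndufa4 was not called with tau in either genotype. It was at 46.0, 45.4 and 58.5 CPM with tau and 67.3, 52.8 and 33.7 untreated in the APOE3 SAN libraries, and at 48.6, 46.4 and 41.2 against 36.8, 50.02 and 59.4 in the second series. The groups overlapped in both, with -0.03 ± 0.15 in APOE3 (edgeR, adjusted p = 0.93) and -0.15 ± 0.17 in APOE3S/S (adjusted p = 0.69). Untreated libraries of Ndufa4 spread more widely than the tau ones.

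**Figure D5:**
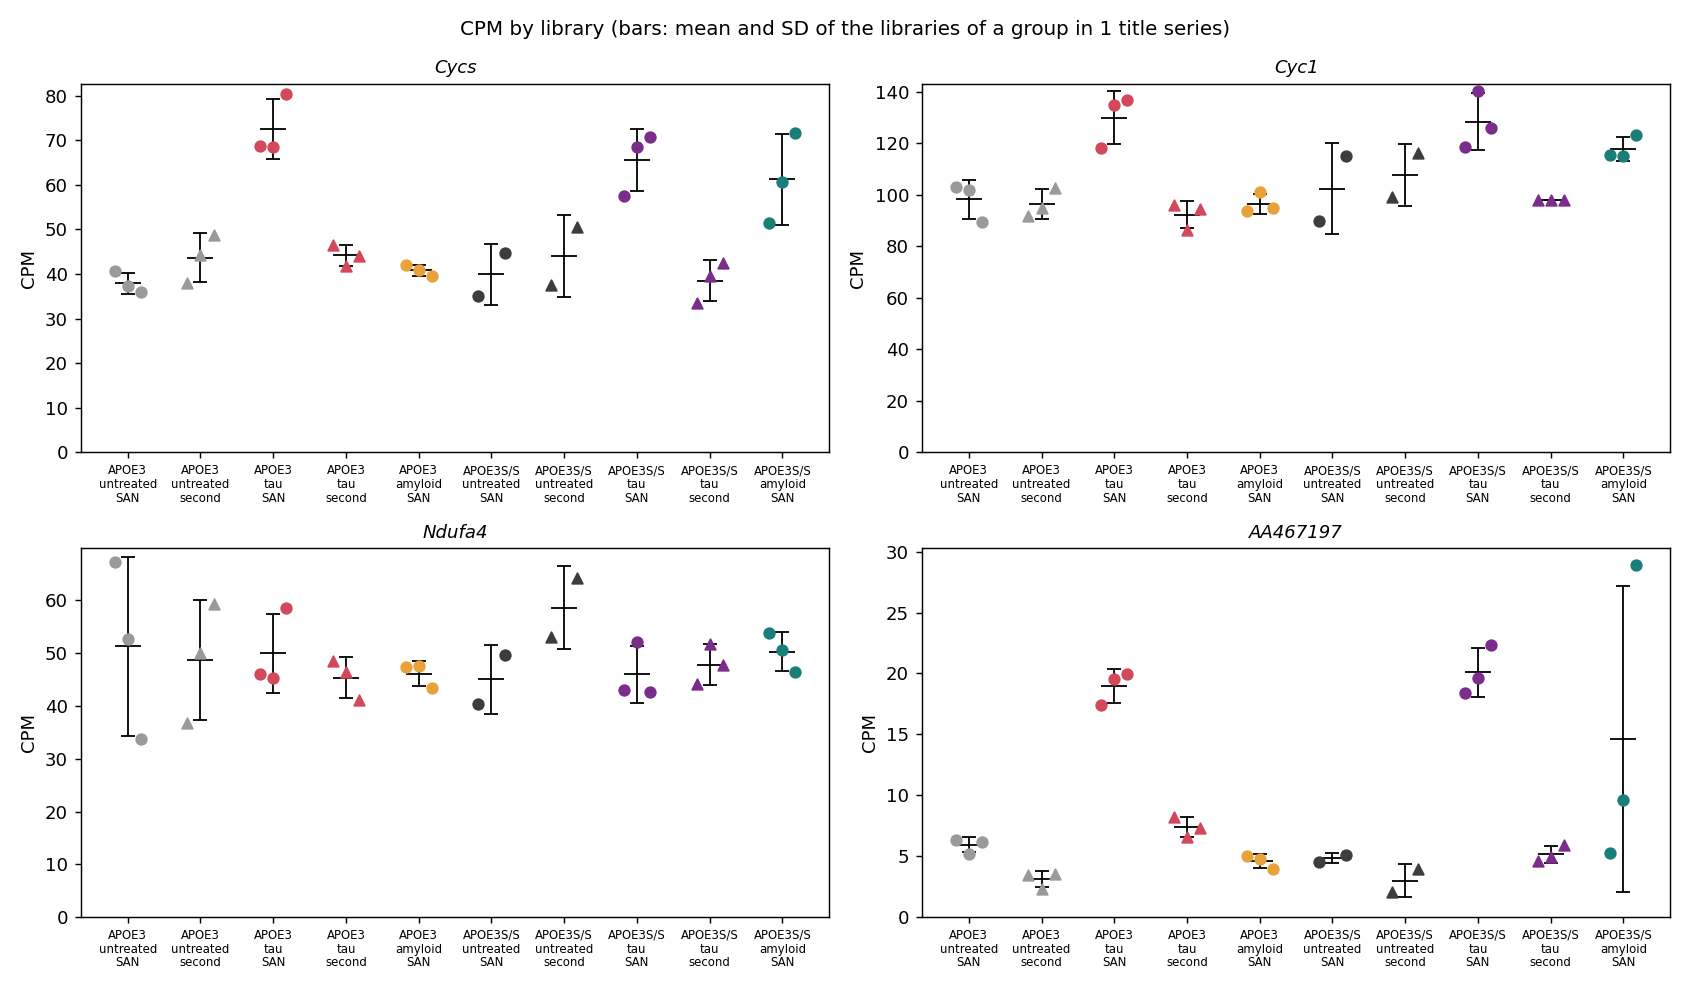
CPM of Cycs, Cyc1, Ndufa4 and AA467197 in each library by group and title series, with mean and SD (bars). Cycs lies at 68.5 to 80.3 CPM in APOE3 tau libraries of the SAN series and at 41.8 to 46.6 in those of the second, and AA467197 is higher with tau in each series.

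A wider list of 99 genes that serve the chain (regulators, mtDNA expression, assembly, electron entry and carriers) was set beside the members, and 94 were found. With tau in APOE3, 7 of 90 tested rose and 1 fell (8.89%, against 14.9% of all genes). Hif1a, the oxygen-sensing transcription factor, rose by 0.74 ± 0.10 (edgeR, adjusted p = 0.00013), and Gpd2, which passes electrons from glycerol phosphate to ubiquinone, by 0.76 ± 0.17 (adjusted p = 0.0039). Coa5, a complex IV assembly factor, rose by 0.59 ± 0.13 (adjusted p = 0.0039), and Ucp2, an inner membrane carrier, fell by 0.32 ± 0.09 (adjusted p = 0.013). Each kept its call in 12 of 12 fits without 1 library. The fold changes of Coa5 and Gpd2 were higher in the SAN than in the second series. Their tau by series interactions were 0.83 (edgeR, adjusted p = 0.0032) and 0.87 (adjusted p = 0.031).

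In APOE3S/S with tau, 3 of 90 rose and 2 fell (5.56%, against 3.28% of all genes). Hif1a rose by 0.92 ± 0.11 (edgeR, adjusted p = 0.00035) and Gpd2 by 0.70 ± 0.19 (adjusted p = 0.049). The complex IV assembly factor Coa4 fell by 0.44 ± 0.10 (adjusted p = 0.028) and Ucp2 by 0.36 ± 0.10 (adjusted p = 0.041). Coa4, Ucp2 and Gpd2 lost their calls without some libraries, being kept in 4, 2 and 3 of 10 fits. Without APOE3S/S untreated library 1, for example, the adjusted p was 0.0644 for Coa4, 0.112 for Ucp2 and 0.135 for Gpd2. In tau against amyloid in APOE3, 7 of 91 rose and 1 fell (8.79%, against 7.44% of all genes), with Hif1a at 0.68 ± 0.15 (adjusted p = 0.018) and AA467197 at 2.14 ± 0.41 (adjusted p = 0.010), kept in 1 and 4 of 6 fits. AA467197 lost its call without APOE3 amyloid library 3 (0.0568) or APOE3 tau library 6 (0.0584), and Hif1a kept it only without APOE3 tau library 4 (0.0345). None of the list was called by edgeR in the genotype or amyloid comparisons.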

How the data were processed

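Counts per gene were deposited by the authors as 2 tables of whole-number counts, of 22 and 11 libraries, which share 5 identical untreated libraries. Per the labels' protocols, RNA was isolated with a Quick-RNA MicroPrep kit and libraries were made with a QuantSeq 3′ FWD kit. Per the submitters' processing notes, the build was GRCm38/mm10 and DESeq2 1.38.3 was used. No source used here names the aligner or counter. Rows without numbers (6360 of 60976), 25 without a name, 81 exact repeats and 99 further rows of a repeated symbol were left out.

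CPM used the library total. edgeR 4.0.16 (quasi-likelihood test, TMM scaling, filterByExpr) was fitted over all genes, with title series as a term in the tau fit of 22 libraries, and p-values were adjusted by Benjamini-Hochberg over all genes tested, with calls at 0.05. SE is the log2 fold change divided by the square root of F. Amyloid was fitted in 11 and tau against amyloid in 17 SAN libraries. Alternatives used DESeq2 1.42.0, limma 3.58.1, other filters and scalings, each title series alone and fits without 1 library. The scripts were tested on simulated data. Members and lists were chosen with earlier results of these data known. Named genes were called members (up to 12 by p), the 2 smallest p per role, 15 set genes, and the 5 smallest p of the wider list. Genes with near-identical copies or overlaps are uncertain.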

Additional observations from a re-analysis of the deposited data

Results flagged for a closer look

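Cox4i1, a complex IV subunit, stood at 392.3 CPM in APOE3S/S tau library 5, far from the nearest library of its group (307.9 CPM). It was the only one of 72 sets of libraries to stand out in this way, where chance gives about 1 in 20, so 1 such set is no more than chance gives. The sets pooled both title series, which that share does not allow for, and the amyloid groups were too small to be included. That library also had a high short-minus-long measure (0.36), whose part in the value was not tested.

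The effect of tau in APOE3 cells differed between the title series in a test of the interaction (edgeR) for Cycs (0.97, adjusted p = 0.0029) and Cyc1 (0.52, adjusted p = 0.049). Of the wider list it differed for Ppargc1b, a coactivator of mitochondrial genes (1.95, adjusted p = 0.0028), Coa5 (0.83, adjusted p = 0.0032) and Gpd2 (0.87, adjusted p = 0.031). For all 5 the fold change with tau was higher in the SAN series, and Gpd2 kept its call in 5 of 12 fits without 1 library.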

How the results depend on the processing

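Percentages after a count are the share of all genes called in the same fit. For tau in APOE3 the number of members called (1, 14.9%) became 3 with no filter (8.33%) and 0 at 10 CPM or more (20.6%). It was 2 by DESeq2 (17.6%), 2 by limma-voom (15.4%) and 16 with the short-minus-long covariate (23%). Without the 3 libraries highest in that measure it was 3 (13.6%). It was 5 in the SAN series (19%), 0 in the second (2.55%) and 0 without a title series term (6.08%). A fit of all 28 libraries gave 2 (16%), and fits without 1 library gave 0 to 2. For tau in APOE3S/S (0, 3.28%) it was 3 with no filter (5.09%). It was 1 with the covariate (6.12%), in the SAN series (4.64%) or with the 2 groups alone (1.97%). For amyloid in APOE3S/S (0, 0%) it was 2 with no filter (2.59%) and 0 to 1 without 1 library. For genotype under amyloid (0, 0%) it was 2 with no filter (2.88%), 1 by DESeq2 (0.425%) and 4 with the 2 groups alone (2.71%). For tau against amyloid in APOE3 (4, 7.44%) it was 13 with no filter (7.07%), 8 by DESeq2 (11.3%) and 35 with the 2 groups alone (27.9%). It was 1 to 2 without 1 library. In APOE3S/S (0, 0.149%) it was 1 with no filter (1.82%). For tau by title series (2, 8.08%) it was 6 with no filter (6.02%), 8 with the covariate (14.2%) and 1 to 8 without 1 library. The difference in log2 ratio with amyloid in APOE3S/S (-0.15) ran from -0.37 to 0.072 without 1 library. The cause of these shifts was not tested. No gene named as called turned direction under the alternatives run for it. Values without a call did turn. The log2 ratio difference ran from -0.27 to 0.17 for tau in APOE3S/S (-0.05), from -0.044 to 0.22 for amyloid in APOE3 (0.08), from -0.13 to 0.0008 for tau in APOE3 (-0.07) and from -0.44 to 0.0001 for untreated APOE3S/S against APOE3 (-0.22) without 1 library. The nuclear median turned for tau in APOE3S/S (0.15 in the SAN series, 0.06 with the covariate), amyloid in APOE3 (0.08 with the covariate), amyloid in APOE3S/S (-0.05 in a fit of all 28 libraries), tau in APOE3 (-0.02 in the second series), the tau by genotype interaction (0.01 in the SAN series), genotype with tau (-0.02 with the covariate, -0.04 without the 3 libraries) and tau against amyloid in APOE3S/S (-0.002 with the covariate). Whether the numbers in the titles pair samples of the 2 genotypes is not stated. Deviations of same-number libraries correlated at -0.20 to 0.45. This cannot decide the question, since deviations within such small groups are tied to each other. A block by title number called 0 members in the 3 genotype contrasts where it was fitted. Low counts limit what can be said of mt-Atp8 (78 counts over the 28 libraries) and of the tissue isoforms near 0. The other mt- members under 50 CPM had 1638 (mt-Nd4l) to 13738 (mt-Co2) counts, and what sets their spread was not tested.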

Other observations

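Ndufa12, chosen after its values were seen, varied within groups, with an SD of 0.57 on the log2 scale against a median of 0.19 over nuclear members. Its CPM ran from 6.17 to 23.6 over the 28 libraries, and was 10.7, 23.6 and 7.61 in the APOE3S/S amyloid libraries. mt-Nd5 ran from 687 to 2037 CPM, the widest range in CPM of any mt- member except mt-Co1.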
